A study of Homo sapiens with 2 samples.

Results

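The 9 genes described here, CS, IDH3A, IDH3B, OGDH, DLST, SUCLG1, SUCLA2, FH and MDH2, encode enzymes of the tricarboxylic acid (TCA) cycle and were taken by symbol from the 58174 genes listed for each library. The set was chosen by gene name, with the TPM values of both libraries and the ratio between them already in view, so its levels and ratios are given as a description. RNA-seq was performed on PLC-8024, a human hepatocellular carcinoma (HCC) cell line, with 1 library of PLC-8024-CTR cells, which carried a control vector, and 1 library of PLC-8024-GDF1 cells, which overexpressed GDF1, a ligand of the TGF-β superfamily. Per the methods, GDF1 was introduced by lentivirus and stably transduced cells were selected with puromycin. Both cell populations came from a single line, and whether the control cells were selected in the same way is not stated. They are called the control library and the GDF1 library. With a single library on each side, replicates could not be compared, and neither an error nor a test is given.

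The TCA cycle runs in the mitochondrial matrix, where it oxidises the acetyl group of acetyl-CoA to carbon dioxide and passes the electrons to the respiratory chain as NADH and reduced flavin. Its intermediates also leave the cycle for the synthesis of glucose, lipids, haem and amino acids. In hepatocytes it is tied to gluconeogenesis, to urea synthesis and to the breakdown of amino acids.

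Levels are TPM values, a transcript abundance scaled by transcript length and by the library total. Since the total is the same in each library (summed TPM of 999990 and 999995), sequencing depth cannot be read from the values. Ratios are log2((TPM + 1)/(TPM + 1)), with the GDF1 library over the control library, and a gene is said to have risen or fallen when this ratio passed 1 or -1, a 2-fold limit. The pseudocount of 1 makes the ratio of a gene with low TPM smaller. A minimum of 5 TPM in at least 1 of the libraries was met by 9632 genes. Among them 1041 fell (10.8%) and 471 rose (4.89%), so that rises made up 31.2% of the calls, and 49.0% (681 rises and 709 falls) when TPM was rescaled to a median ratio of 0. The median ratio of the 9632 genes was -0.20, and 63.4% of them were lower in the GDF1 library. The introduced gene overlaps CERS1, and the pair added up changed from 15.4 to 9616 TPM, with GDF1 itself listed at 2.096 and 4.64 TPM. Of 6 hepatocyte markers, all had at least 5 TPM and 4 fell (ALB, TTR, APOA1 and HNF4A), while SERPINA1, with the highest TPM, was listed at 5308 and 2915 TPM and TF at 1318 and 1434 TPM. With the GC trend removed, ALB (-0.70) and HNF4A (-0.85) were within 2-fold. The summed level of the 6 markers was 7263 TPM in the control library and 4519 TPM in the GDF1 library. Of 8 markers of stromal, endothelial and immune cells, 6 were under 1 TPM in both libraries, with COL1A2, DCN, VWF and PTPRC at the placeholder of 0.0001 TPM. The exceptions were PECAM1 at 23.2 and 22.2 TPM and CD68, which fell from 33.1 to 13.2 TPM, and the summed level of the 8 markers was 56.5 and 36.3 TPM. What these markers have to do with the TCA cycle genes was not tested.

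All 9 TCA cycle enzymes passed the 5 TPM minimum, and each was listed at a lower TPM in the GDF1 library, as were 63.4% of all genes, although MDH2 turned when TPM was rescaled, and MDH2 and SUCLG1 turned when the trend with GC content was removed. In bulk RNA, fewer cells that express a gene and less of its RNA per cell cannot be told apart. Of the 9, 1 gene fell (11.1%, against 10.8% of all genes), 0 rose (against 4.89%) and 8 stayed within 2-fold. The gene that fell was CS. The median ratio of the 9 genes was -0.61, at the lower quartile of all genes, which was also -0.61. The median of the 9 moved to -0.20 when the GC trend was removed. It was then -0.0021 for the 8454 protein-coding genes on which that trend was estimated, and so near 0 by construction. Their summed level was 856.7 TPM in the control library and 671.9 TPM in the GDF1 library, or 78.4%. Without CS, the sum was 808.8 and 669.9 TPM, or 82.8%.

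**Figure D1:**
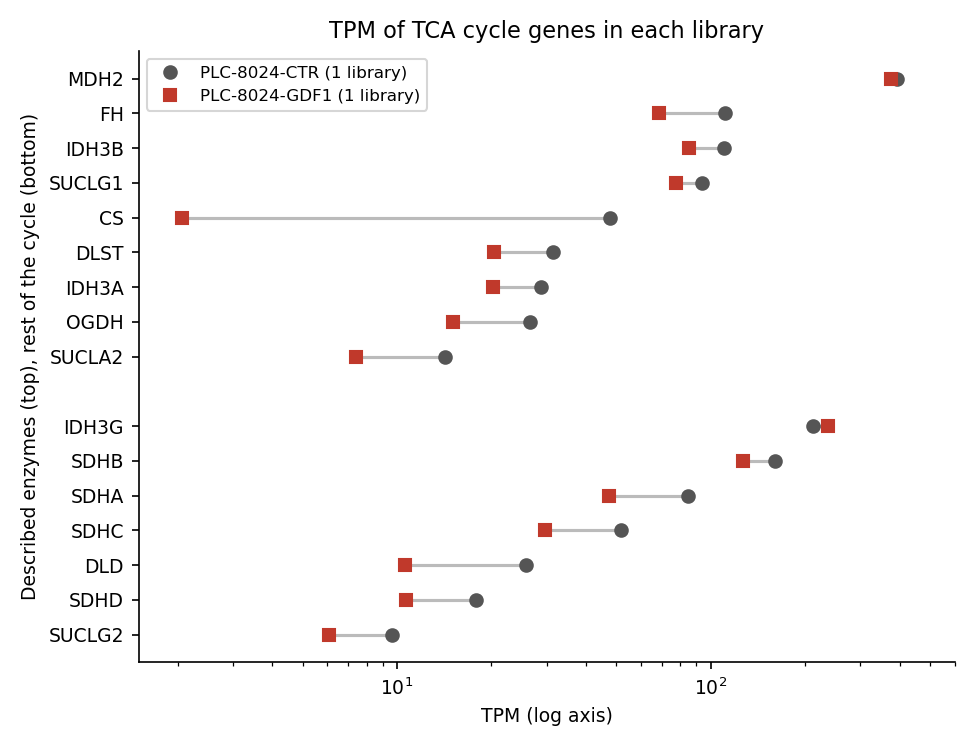
TPM of the 9 described enzymes (top) and of 7 other TCA cycle genes (bottom) on a log axis, with PLC-8024-CTR as circles and PLC-8024-GDF1 as squares, 1 library each. CS has by far the longest line between its symbols, from 47.9 to 2.07 TPM, while the symbols of MDH2, at 392.2 and 375.4 TPM, nearly touch.

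CS encodes citrate synthase, which joins acetyl-CoA to oxaloacetate and so opens the cycle. The gene (ENSG00000062485) lies at chr12:56665483-56694175 of GRCh37 on the minus strand. CS fell from 47.9 TPM in the control library to 2.07 TPM in the GDF1 library, which left 4.31% of the control level. The log2 ratio was -4.00, or -3.80 relative to the median of all genes, and -4.53 without a pseudocount. Only 8 of the 9632 genes, CS included, had a ratio this low or lower, and 3 of these 8 still had at least 1 TPM in the GDF1 library. By level, CS was the gene of rank 5 among the 9 in the control library and of rank 9 in the GDF1 library, and its share of their summed TPM went from 5.59% to 0.307%.

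CS shares exons with AC073896.1 (ENSG00000144785, chr12:56679700-56709843, minus strand), an annotated readthrough gene that joins the neighbouring CNPY2 to CS, so that reads of the shared exons can be assigned to either gene. AC073896.1 rose from 2.04 to 6.64 TPM, a log2 ratio of 1.33. The longest transcripts of AC073896.1 and CS have 937 and 3057 bases, so the same number of reads gives a different TPM in each. Added up, CS and AC073896.1 changed from 49.9 to 8.71 TPM, which left 17.4% of the control level and gave a log2 ratio of -2.39. The level of AC073896.1 over that of CS was 0.0427 in the control library and 3.22 in the GDF1 library. The shared exons hold 220 bases, or 7.20% of the longest CS transcript of 3057 bases, and the other 2837 bases (92.8%) lie in no exon of AC073896.1. Of the 1053 exon bases of AC073896.1, 20.9% lie in exons of CS, 79.1% in exons of CNPY2, and 0 in neither. CNPY2, which encodes a saposin-like protein of the secretory pathway, was listed at 250.01 and 276.0 TPM, a log2 ratio of 0.14. How reads were divided among these genes cannot be read from TPM and was not tested.

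The boundary between shared and unshared sequence falls within the coding exons of CS. Exons 2 and 3 of CS (chr12:56680379-56680429 and chr12:56679700-56679807 of GRCh37) are wholly shared with AC073896.1, and exon 4 (chr12:56677576-56677641) is not, while the rest of the shared bases lie upstream of exon 2. The transcript sequence of these exons is shown to mark where the shared exons end in the GENCODE annotation. The 159 shared bases are in capitals and the 66 bases of exon 4 in lower case. The annotation behind the deposited values may place this boundary elsewhere.
CS exons 2 to 4: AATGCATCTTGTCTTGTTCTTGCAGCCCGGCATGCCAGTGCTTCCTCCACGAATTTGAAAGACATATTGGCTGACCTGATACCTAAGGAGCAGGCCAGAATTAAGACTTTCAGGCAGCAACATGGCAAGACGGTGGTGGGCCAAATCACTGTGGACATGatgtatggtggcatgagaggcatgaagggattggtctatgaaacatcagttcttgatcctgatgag

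**Figure D2:**
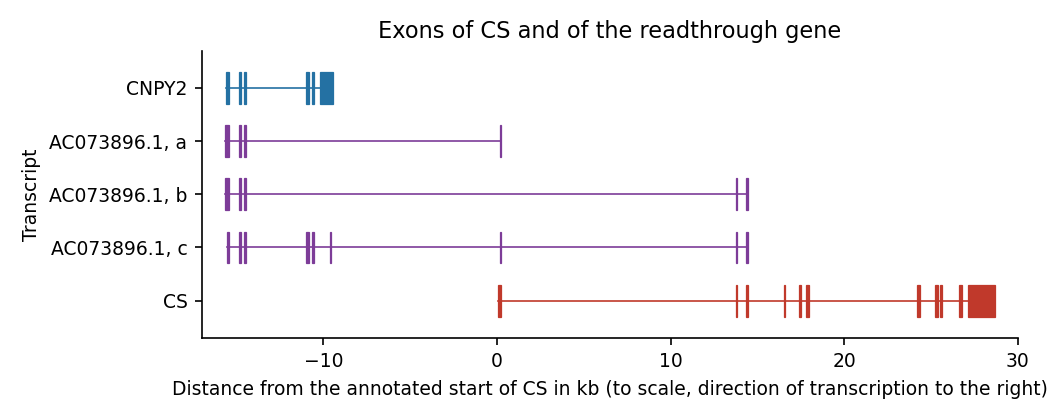
Exons (boxes) and introns (lines) of CS, of the readthrough gene AC073896.1 (transcripts a to c) and of CNPY2, to scale, against the distance from the annotated start of CS in kb. AC073896.1 begins in CNPY2, upstream of CS, and ends in the first part of CS, sharing 220 exon bases with it.

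IDH3A and IDH3B encode the catalytic subunit and a regulatory subunit of the NAD-dependent isocitrate dehydrogenase, which turns isocitrate into 2-oxoglutarate. IDH3A (ENSG00000166411, chr15:78423840-78464287, plus strand) was listed at 28.8 TPM in the control library and 20.2 TPM in the GDF1 library, with a log2 ratio of -0.49, or -0.30 relative to the median. IDH3B (ENSG00000101365, chr20:2639041-2644865, minus strand) was listed at 110.5 and 85.3 TPM, with a log2 ratio of -0.37, or -0.17 relative to the median. Both genes were within 2-fold. The level of IDH3A over that of IDH3B was 0.261 in the control library and 0.237 in the GDF1 library. IDH3G, the gene of the other regulatory subunit, was listed at 212.0 and 237.1 TPM, with a log2 ratio of 0.16. The level of IDH3A over that of IDH3G was 0.136 and 0.0853. IDH3G shares 15.6% of its longest transcript with SSR4 on the opposite strand, which was listed at 1120 and 2362 TPM, and whether reads were counted by strand is not given in the sources used here.

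OGDH and DLST encode the first and the second component of the 2-oxoglutarate dehydrogenase complex, which makes succinyl-CoA, and DLST carries the lipoyl group of the complex. OGDH (ENSG00000105953, chr7:44646171-44748665, plus strand) was listed at 26.6 TPM in the control library and 15.1 TPM in the GDF1 library, with a log2 ratio of -0.78, or -0.58 relative to the median. DLST (ENSG00000119689, chr14:75348594-75370446, plus strand) was listed at 31.5 and 20.4 TPM, with a log2 ratio of -0.61, or -0.41 relative to the median. These genes kept 56.8% and 64.6% of their control levels, and neither passed the 2-fold limit. The level of OGDH over that of DLST was 0.843 and 0.741. DLD, the gene of the third component, which this complex shares with pyruvate dehydrogenase, fell from 25.9 to 10.6 TPM, a log2 ratio of -1.21, or -0.69 with the GC trend removed, which is within 2-fold. The level of DLST over that of DLD was 1.22 in the control library and 1.93 in the GDF1 library.

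SUCLG1 and SUCLA2 encode subunits of succinyl-CoA synthetase, the enzyme of the cycle that makes a nucleoside triphosphate directly. SUCLG1 is the alpha subunit common to both forms of the enzyme, and SUCLA2 is the beta subunit of the ADP-forming one. SUCLG1 (ENSG00000163541, chr2:84650652-84687169, minus strand) was listed at 93.7 TPM in the control library and 77.5 TPM in the GDF1 library, with a log2 ratio of -0.27, or -0.076 relative to the median, and 0.22 when the trend with GC content was removed. SUCLA2 (ENSG00000136143, chr13:48319871-48612104, minus strand) was listed at 14.3 and 7.41 TPM, with a log2 ratio of -0.86, or -0.66 relative to the median. SUCLA2 kept 52.0% of its control level, close to the 2-fold limit. As deposited it had the lowest ratio of the 9 after CS, but with the GC trend removed it was at -0.38 and OGDH, at -0.64, was lower. The level of SUCLG1 over that of SUCLA2 was 6.57 in the control library and 10.5 in the GDF1 library. SUCLG2, the beta subunit of the GDP-forming enzyme, was listed at 9.63 and 6.08 TPM, with a log2 ratio of -0.59. Its ratio was -0.11 with the GC trend removed.

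FH encodes fumarate hydratase, which turns fumarate into malate, and MDH2 encodes the mitochondrial malate dehydrogenase, which returns malate to oxaloacetate. FH (ENSG00000091483, chr1:241660811-241683099, minus strand) was listed at 111.1 TPM in the control library and 68.5 TPM in the GDF1 library, with a log2 ratio of -0.69, or -0.49 relative to the median. MDH2 (ENSG00000146701, chr7:75677369-75696826, plus strand) was listed at 392.2 and 375.4 TPM, with a log2 ratio of -0.06 as deposited, but of 0.14 when TPM was rescaled to a median ratio of 0. The ratios of 8 of the 9 enzymes lay below the median of all genes, which has 50.0% of genes below it by construction, and that of MDH2 lay 0.13 above it. MDH2 also had the highest level of the 9 in both libraries. The level of MDH2 over that of FH was 3.53 in the control library and 5.48 in the GDF1 library, and over that of CS it was 8.19 and 181.7. MDH2 made up 45.8% of the summed TPM of the 9 genes in the control library and 55.9% in the GDF1 library. Without MDH2, the sum of the other 8 was 464.4 and 296.5 TPM, or 63.8%.

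In order of level, the genes in the control library were MDH2, FH, IDH3B, SUCLG1, CS, DLST, IDH3A, OGDH and SUCLA2. In the GDF1 library the order was MDH2, IDH3B, SUCLG1, FH, DLST, IDH3A, OGDH, SUCLA2 and CS. Neighbours such as FH and IDH3B in the control library (111.1 and 110.5 TPM) or DLST and IDH3A in the GDF1 library (20.4 and 20.2 TPM) were nearly level, and with 1 library each their order has no error to be judged by. Among all 9632 genes, the ratio of CS stood at percentile 0.083, those of SUCLA2, OGDH, FH and DLST at percentiles 14.4, 17.6, 21.4 and 25.3, and those of IDH3A, IDH3B and SUCLG1 at 31.9, 38.9 and 45.0. MDH2 stood at percentile 59.4.

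**Figure D3:**
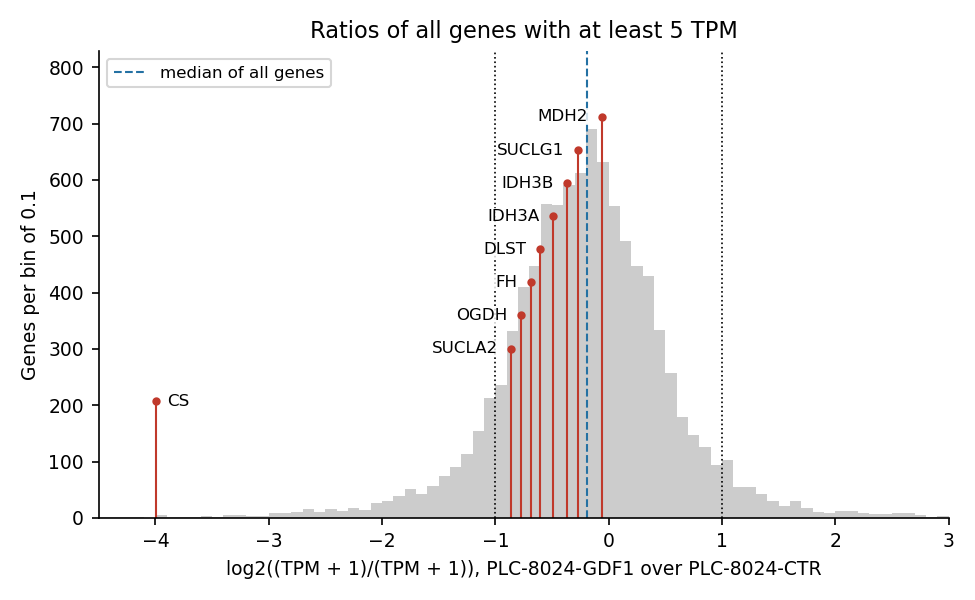
Number of genes with at least 5 TPM per bin of 0.1 of the log2 ratio (GDF1 over control library), shown from -4.5 to 3, with the 9 enzymes as red lines of arbitrary height, the 2-fold limits dotted and the median of all genes (-0.20) dashed. CS lies at -4.00, far out in the lower tail, and the other 8 lie between -0.86 and -0.06, inside the bulk of the genes, where MDH2 (-0.06) moves to 0.14 when TPM is rescaled to a median ratio of 0.

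Another 7 genes of the cycle were taken from a fixed list of its subunits. Of these, 1 fell (DLD, which was within 2-fold with the GC trend removed), 0 rose and 6 stayed within 2-fold, beside 10.8% and 4.89% of all genes, and 6 of 7 were listed lower, beside 63.4% of all genes, of which SDHB turned when the GC trend was removed. Their median ratio was -0.70 as deposited, beside the -0.61 of the 9 described genes. With the GC trend removed, their ratios ran from -0.69 (DLD) to 0.16 (IDH3G). Between these lay SDHA (-0.55), SDHC (-0.47), SDHD (-0.20), SUCLG2 (-0.11) and SDHB (0.076). The subunits of succinate dehydrogenase, which is also complex II of the respiratory chain, differed in the size of their ratios. SDHA, the flavoprotein, was listed at 84.4 and 47.3 TPM, with a log2 ratio of -0.82. SDHC and SDHD, the membrane anchors, were listed at 51.8 and 29.5 TPM and at 17.9 and 10.7 TPM, with log2 ratios of -0.79 and -0.70. SDHB, the iron-sulphur subunit, was listed at 160.8 and 126.3 TPM, with a log2 ratio of -0.35 that turned to 0.076 when the trend with GC content was removed. SDHA shares 23.9% of its 100-base windows with other genes, and SDHD shares 23.8% of its longest transcript with a readthrough gene on the same strand listed at 2.09 and 0.0001 TPM, so their values are less certain. Added up, these 16 genes of the cycle were listed at 1419 TPM in the control library and 1139 TPM in the GDF1 library.

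Genes that feed, assemble or border the cycle were described by the same count over those with at least 5 TPM, for which the shares of all genes were 10.8% fallen and 4.89% risen. Of 8 such genes of pyruvate entry (out of 13), 1 fell, and the median ratio was -0.53. It was DLAT, the lipoylated core of pyruvate dehydrogenase, which fell from 10.3 to 3.35 TPM. Of 5 relatives that catalyse like reactions outside the cycle (out of 6), 1 fell, and the median was -0.70. It was IDH2, the NADP-dependent mitochondrial isocitrate dehydrogenase, which fell from 267.2 to 98.7 TPM. Of 4 assembly factors of succinate dehydrogenase, 1 fell, SDHAF3, which went from 14.3 to 4.96 TPM, and the median was -0.24. With the GC trend removed, the other assembly factors came to 0.14 (SDHAF1), -0.12 (SDHAF2) and 0.35 (SDHAF4). The median of the 8454 protein-coding genes was then -0.0021. Of 13 genes that fill or drain the cycle (out of 16), 1 fell, and the median was -0.52. It was PCK2, the mitochondrial phosphoenolpyruvate carboxykinase, which fell from 342.9 to 159.3 TPM. Of 3 lipoylation genes, 2 reached 5 TPM and 0 of these fell, with LIAS, the lipoyl synthase, at 10.9 and 7.63 TPM and a median of -0.57. The log2 ratio of LIAS, -0.46, turned to 0.028 when the GC trend was removed. Of 6 regulators of mitochondrial genes, 2 reached 5 TPM and 0 of these fell, with ESRRA, an orphan nuclear receptor, at 47.8 and 32.7 TPM and a median of -0.36. In each of these lists 0 genes with at least 5 TPM rose. Under that minimum, 5 genes of the lists had a ratio under -1. With the minimum lowered to 1 TPM, 9.61% of 14929 genes had such a ratio, those of at least 5 TPM included. The share among all genes under 5 TPM was not calculated. LIPT1, a lipoyltransferase, was listed at 4.28 and 0.15 TPM, with a log2 ratio of -2.20, the lowest of the lipoylation genes. Among the regulators, TFAM was listed at 4.51 and 1.51 TPM (log2 ratio -1.14) and GABPA at 3.32 and 0.95 TPM (log2 ratio -1.15). In pyruvate entry, PDK1 was listed at 4.09 and 0.69 TPM (log2 ratio -1.59) and PDP1 at 1.96 and 0.43 TPM (log2 ratio -1.05). With the GC trend removed, LIPT1 (-1.72) and PDK1 (-1.09) stayed under -1, and TFAM (-0.61), GABPA (-0.62) and PDP1 (-0.58) did not. DLAT (-0.89) and SDHAF3 (-0.83) were within 2-fold with the GC trend removed, and PCK2 (-0.90) when TPM was rescaled to a median ratio of 0.

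Ratios in these libraries moved with the base composition and the length of the transcripts. Over 8454 protein-coding genes with at least 5 TPM, of which 11.4% fell, 5 groups of like size were formed by GC content. The median ratio was -0.52 among the genes poorest in GC and 0.10 among the richest. SUCLG1, SUCLA2 and FH lay in the poorest group, and 0 of the 9 enzymes lay in the richest. Set against the median of their own GC group, which has as many genes below it as above by construction, 7 of the 9 were lower. SUCLG1 and MDH2 were higher, by 0.25 and 0.18. With the GC trend removed, CS was at -3.71, while IDH3A came to -0.058 and FH to -0.19. By length, the median was -0.005 in the group of shortest transcripts and -0.35 in that of the longest, and the 3 shortest of the 9 transcripts (IDH3B, SUCLG1 and MDH2) had the 3 smallest differences. The part of base composition and length in the ratios was not tested.

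**Figure D4:**
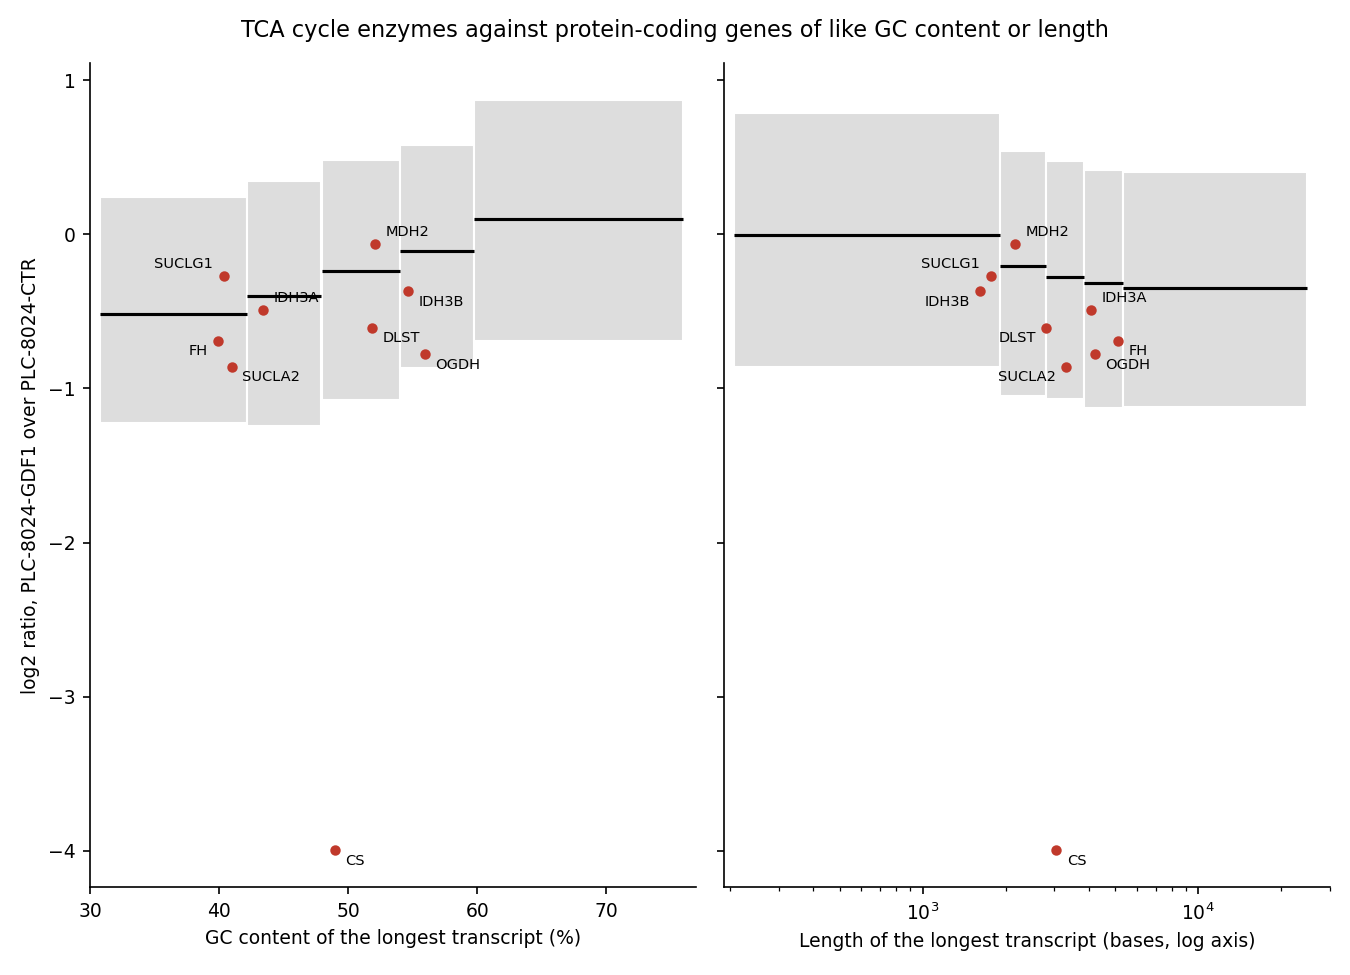
Log2 ratio (GDF1 over control library) of the 9 enzymes (red points) against the GC content in % (left) and the length in bases on a log axis (right) of the longest transcript. Grey boxes span percentiles 10 to 90 and black lines mark the medians of 5 equal groups of protein-coding genes, and CS lies far below its box in both panels, at -4.00.

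Reads could be shared with near-identical copies for few of the enzymes. Of the 100-base windows of the longest transcript, 7.61% occurred in another gene for CS, most of them in the pseudogene AC020904.2, which was listed at 0.15 and 0.41 TPM. The share was 0.777% for SUCLA2 and 0.479% for DLST, and 0 for the other 6. Overlaps on the opposite strand were sought only with genes of at least 1 TPM in either library. Exons of 3 of the 9 (CS, IDH3A and SUCLA2) overlap an exon of such a gene. Only for CS, over 28 bases, does the overlap reach the longest transcript.

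Promoter sequence was compared for the 8 of the 9 genes with an entry in RefSeq (GRCh38.p14). The 250 bases before each start were searched on both strands for the GC box GGGCGG, the ETS core CCGGAAG, the ERR core AAGGTCA, the NRF1 core GCGCATGC and the SMAD box CAGAC, and no match of a motif overlapped one of another. The first 4 motifs are those of factors known to bind promoters of mitochondrial genes, and SMAD proteins carry the signal of the TGF-β superfamily. A GC box was found in 5 of the 8 (FH, CS, SUCLA2, DLST and IDH3A), where 42.6% of 35116 promoters hold one. The ETS core was found in 3 (MDH2, DLST and IDH3B), where 8.52% of promoters hold it, and the ERR core in 1 (SUCLA2), where 3.44% do. The NRF1 core was found in 0, where 2.63% of promoters hold it, and the SMAD box in 3 (FH, MDH2 and IDH3B), where 38.0% do. The promoters of CS, MDH2 and SUCLA2 are shown because these genes had the lowest, the highest and the next lowest ratio of the 9 as deposited. Matches of the GC box, the ETS core and the ERR core are in capitals, and each match is a description and not a site of binding.
CS (chr12:56300331-56300580, minus strand): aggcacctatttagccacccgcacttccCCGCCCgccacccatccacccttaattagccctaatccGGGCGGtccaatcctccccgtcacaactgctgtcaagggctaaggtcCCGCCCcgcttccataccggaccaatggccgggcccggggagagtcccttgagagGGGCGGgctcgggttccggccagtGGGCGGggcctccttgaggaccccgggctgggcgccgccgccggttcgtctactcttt
MDH2 (chr7:76047856-76048105, plus strand): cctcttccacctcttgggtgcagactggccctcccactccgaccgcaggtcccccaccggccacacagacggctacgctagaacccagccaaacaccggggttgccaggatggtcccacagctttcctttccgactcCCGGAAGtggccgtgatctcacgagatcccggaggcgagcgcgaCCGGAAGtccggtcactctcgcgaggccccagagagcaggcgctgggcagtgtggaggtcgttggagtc
SUCLA2 (chr13:48001274-48001523, minus strand): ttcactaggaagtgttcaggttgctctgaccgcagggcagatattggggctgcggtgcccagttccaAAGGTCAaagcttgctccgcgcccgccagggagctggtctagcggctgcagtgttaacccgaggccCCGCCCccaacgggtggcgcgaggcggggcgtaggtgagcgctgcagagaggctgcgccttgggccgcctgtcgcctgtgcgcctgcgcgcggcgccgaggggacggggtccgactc
The CS promoter held 5 GC boxes and no ETS core, and the MDH2 promoter held 2 ETS cores and no GC box. IDH3A (3), FH (2) and SUCLA2 (1) also held GC boxes and no ETS core. IDH3B held 1 ETS core and no GC box, DLST held both motifs and SUCLG1 neither. Whether the motifs bear on the ratios was not tested.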

How the data were processed

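RNA-seq libraries of control and GDF1-transduced PLC-8024 cells were compared, 1 each. Per the methods and the submitters' processing notes, reads were checked with FastQC 0.11.2, trimmed with Trimmomatic 0.36, aligned to hg19 with HISAT2 2.1.0 and quantified with StringTie 1.3.3b, and bedtools 2.26.0 is also named. The authors deposited TPM values per gene, scaled to a fixed total, so read depth is unknown and no counting interval is given. The methods name RefSeq genes, whereas the files list Ensembl identifiers.

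Positions, exons and transcript sequences came from GENCODE release 44 on GRCh37, which held 55726 of the 58174 identifiers and lacked 2448. Where a symbol was listed more than once, the identifier carrying it in GENCODE was taken. GC content was that of the longest transcript, and the trend of the ratio with it was estimated by lowess (span 0.3). The members and lists were chosen with earlier results of these data known. The genes named were all members, genes that overlap them on the same strand, other genes of the cycle, and from each other list the genes past 2-fold or otherwise the one with the highest TPM. CNPY2, AC020904.2, SSR4, PECAM1, TF, SDHAF1, SDHAF2 and SDHAF4 fall outside that rule and were chosen after their values were seen. The same holds for the genes named under the minimum of 5 TPM, the markers at the placeholder, SERPINA1 and the genes named in the closing section. Not all genes of the cycle are reported here. Alternatives were other pseudocounts, minimums and scalings, the GC trend removed, protein-coding genes only, and CS left out or added to AC073896.1. Python 3.11.15, numpy 2.4.6, pandas 2.3.3, statsmodels 0.14.6 and matplotlib 3.10.9 were used. The log2 ratio, the 2-fold calls and the removal of the GC trend were tested on simulated data, and the other calculations were not.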

Additional observations from a re-analysis of the deposited data

How the results depend on the processing

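With 1 library per condition, the differences describe these libraries only, and TPM shows neither depth nor how reads of overlapping genes were divided. No paired analysis was possible because there is only 1 library on each side. The count of members past 2-fold was 1 under every alternative except with CS left out, where it was 0 by construction. The share of all genes that fell was less steady, from 2.47% with no minimum to 13.3% without a pseudocount, beside 10.8% as reported. The median of the 9 enzymes moved from -0.61 to -0.20 with the GC trend removed, and the count of other cycle genes past 2-fold from 1 to 0, since DLD was then at -0.69. MDH2 turned to 0.14 with TPM rescaled to a median ratio of 0, to 0.12 with TPM rescaled to the upper quartile and to 0.16 with the GC trend removed, where SUCLG1 turned to 0.22 and SDHB to 0.076. The cause was not tested. Among 8454 protein-coding genes, the number that fell was 552 (6.53%) with the GC trend removed and 962 (11.4%) as deposited. The number of all genes that rose was 720 with a minimum of 1 TPM and 471 with 5 TPM. DLAT (-0.89) and SDHAF3 (-0.83) were within 2-fold with the GC trend removed, and PCK2 (-0.90 and -0.92) under both rescalings. The other 34 comparisons of summary values kept their direction and their side of the 2-fold limit and stayed within 1.5 times.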

Other observations

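The malate-aspartate shuttle joins the cycle to the cytosol through enzyme pairs, and its genes, chosen after their values were seen, are given as values. MDH1, the cytosolic malate dehydrogenase, was listed at 180.0 TPM in the control library and 110.4 TPM in the GDF1 library, with a log2 ratio of -0.70. The level of its mitochondrial counterpart MDH2 over that of MDH1 was 2.18 in the control library and 3.40 in the GDF1 library. Among the aspartate aminotransferases, too, the mitochondrial form had the higher log2 ratio, though the lower level. GOT1, the cytosolic form, was listed at 171.5 and 90.1 TPM, with a log2 ratio of -0.92, and GOT2, the mitochondrial form, at 72.8 and 71.4 TPM, with a log2 ratio of -0.03. For the isocitrate dehydrogenases that use NADP the order of the log2 ratios was the other way, with IDH1, the cytosolic form, at 167.2 and 84.7 TPM (log2 ratio -0.97) and IDH2, the mitochondrial form, at 267.2 and 98.7 TPM (log2 ratio -1.43). With the GC trend removed, the log2 ratios were -0.34 for MDH1, -0.63 for GOT1, 0.24 for GOT2, -0.53 for IDH1 and -1.28 for IDH2. None of these differences has a replicate check.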
